A study of Saccharomyces cerevisiae BY4741 with 8 samples.

Results

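The response of the laboratory yeast strain BY4741 to vanillin was measured in 4 of the 8 RNA sequencing libraries of the series, and these 4 were taken by their strain and medium labels. BY4741 is a haploid Saccharomyces cerevisiae strain of mating type a, given in the methods as his3, leu2, met5 and ura3 deleted. Its cells were moved from an SD preculture to fresh SD medium with 20 g/L glucose, either without addition (2 libraries) or with 5 mM vanillin (2 libraries), and were frozen in log phase at an OD600 of about 1.6 to 2.0. The other 4 libraries came from the same strain with YRR1 deleted, grown in the same 2 media, and served here to estimate the spread between replicates and to ask where a response differed. Both strains share the auxotrophies, harvest was set by optical density, and the hours of exposure are not given in the sources used here.

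The 4 BY4741 libraries held 2234847 and 2290802 expected counts in SD and 2195324 and 2305831 in vanillin. Of 5782 listed genes, 5506 had enough counts to be tested. The log2 values of the replicates correlated with r = 0.964 in SD and 0.976 in vanillin across genes, which are not independent replicates, and on the first principal component, which separated the media, the SD replicates of BY4741 lay further apart than its vanillin replicates. Of the genes that mark the strain, LEU2 and URA3 had at most 2 counts in any library, and MET17 (also called MET15) had 2 to 9 counts in BY4741. The a-type genes STE2, STE6 and BAR1 had at least 483 counts each, but AGA2, also an a-type gene, had only 14 to 19 counts in BY4741. HIS3 kept 118 to 149 counts and MET5 kept 344 to 457 counts in BY4741, so reads of both genes were present. It was thus MET17, and not the MET5 named in the methods, that was nearly absent.

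Vanillin is an aromatic aldehyde released from lignin that slows yeast growth. Yeast is known to reduce it to the less toxic vanillyl alcohol with NADPH- or NADH-dependent reductases, and the pleiotropic drug resistance network, controlled by the zinc-cluster regulators Pdr1 and Pdr3, sets the level of membrane pumps that export many unrelated compounds. Regulators named below are Yap1, a factor of the oxidative stress response, Ino2 and Ino4, a pair that binds genes of phospholipid synthesis, and Msn2 and Msn4, which act through the stress response element.

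For each gene the level is its CPM, the count scaled by TMM to a common library total, listed in the order SD replicate 1, SD replicate 2, vanillin replicate 1, vanillin replicate 2, and the change is a log2 fold change, vanillin minus SD, with its standard error. A gene is said to have risen or fallen where edgeR's quasi-likelihood test gave a false discovery rate (FDR, Benjamini-Hochberg) of at most 0.05 over all 5506 genes. At this limit 128 genes rose (2.32% of those tested) and 45 fell (0.817%). With a fold change of at least 2 as a second requirement, 150 genes were called (2.72%), of which 112 rose (2.03%) and 38 fell (0.69%). In all 150 the libraries of the 2 media did not overlap, so this separation adds nothing to a call. Of all tested genes, 27.5% were separated upward in this way and 26.6% downward. When libraries were scaled by their totals alone, 102 rose and 57 fell, so the share that rose moved from 74.7% to 64.2%; this scaling lowered the median of all genes by 0.11 on the log2 scale. An unadjusted p under 0.05 was reached by 1007 genes (18.3%), and DESeq2, run as an alternative at the same FDR of 0.05, called 209 rises and 81 falls. Where a list is said to have no rise or no fall, DESeq2 had none in that direction either unless its count is given. At the stricter FDR of 0.001 there were 10 genes (0.182%): HBN1, SNQ2, YHB1, INO1, MCH2, YLL056C, YLR046C, PDC5 and PDR5 rose and HSP12 fell. The call depends on every library: leaving out SD replicate 1, SD replicate 2, vanillin replicate 1 or vanillin replicate 2 left 55, 79, 41 and 37 genes at the wider limit and 0, 0, 1 and 1 at the stricter one. The p-values measure the spread between 2 biological replicates per group. Each library was bulk RNA of a culture, so more cells expressing a gene and more RNA per cell cannot be told apart.

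**Figure D1:**
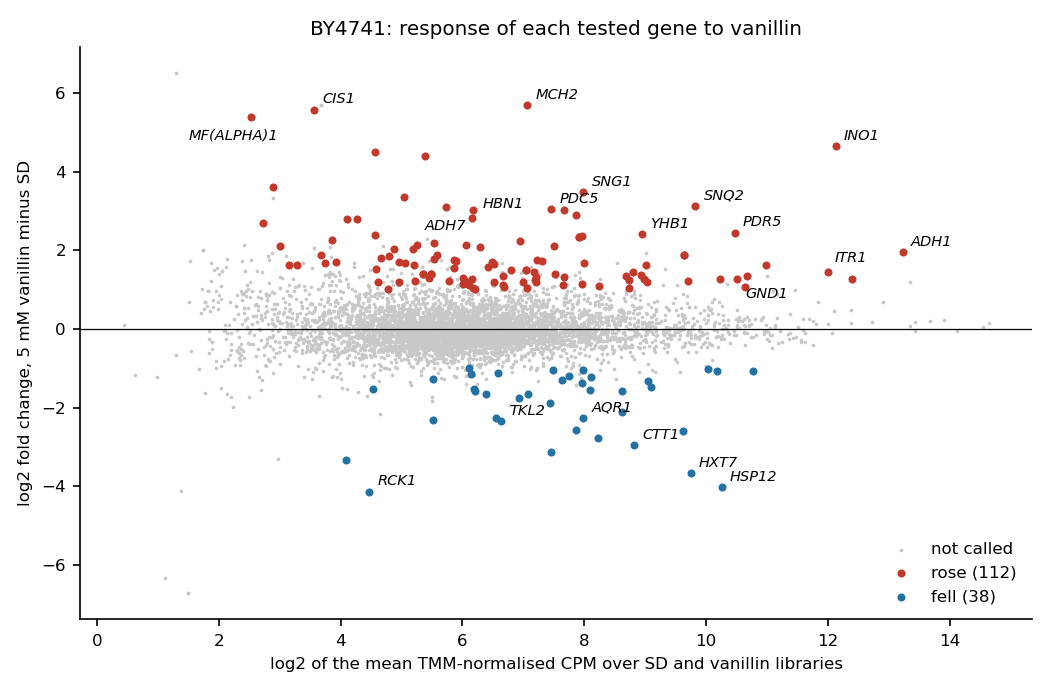
Each point is 1 of 5506 tested genes, with the log2 of its mean CPM on the x axis and its log2 fold change, 5 mM vanillin minus SD, on the y axis. Red points (112) rose and blue points (38) fell by a fold of at least 2 at an FDR of at most 0.05; MCH2 stands at 5.70, INO1 at 4.65 among the abundant genes, and HSP12 at -4.02.

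Membrane pumps were among the clearest rises. Of 22 tested drug efflux transporters, 3 rose and 1 fell, with a list median of 0.44 against -0.02 over all genes. PDR5, an ABC exporter of broad substrate range, stood at 383, 493, 2402 and 2394 CPM (2.45 ± 0.18, FDR 0.00025). SNQ2, a second ABC exporter, stood at 199, 172, 1514 and 1737 CPM (3.13 ± 0.19, FDR 0.00015). Both vanillin libraries were far above both SD libraries for both pumps, and their replicates lay close together. PDR12, an exporter of weak organic acids, rose less, from 63.5 and 105 CPM to 185 and 236 (1.32 ± 0.28, FDR 0.043). AQR1, a plasma membrane transporter of the major facilitator family that is known for resistance to short-chain acids, moved the other way, from 344 and 494 CPM to 75.9 and 98.3 (-2.26 ± 0.25, FDR 0.0033). TPO4 (1.30 ± 0.30, FDR 0.054) and FLR1 (0.89 ± 0.22, FDR 0.072) did not pass.

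Among 13 drug resistance regulators and their other targets, 4 rose and none fell (median 0.66). The targets that rose were ICT1, an acyltransferase of lysophosphatidic acid, at 66.5, 80.9, 256 and 232 CPM (1.73 ± 0.24, FDR 0.0056), and RSB1, a membrane protein of sphingoid base resistance, at 20.3, 21.2, 57.5 and 85.3 CPM (1.78 ± 0.24, FDR 0.0056). Regulator genes that rose were STB5 from 45.8 and 43.3 CPM to 85.8 and 83.9 (0.93 ± 0.18, FDR 0.031) and RDR1, a repressor of drug resistance genes, from 17.3 and 20.3 CPM to 39.1 and 48.0 (1.21 ± 0.25, FDR 0.036). PDR1 itself stood at 69.1, 60.2, 60.8 and 63.4 CPM (-0.06 ± 0.19, FDR 0.898), PDR3 at 45.3, 47.2, 61.3 and 62.0 CPM (0.41 ± 0.22, FDR 0.341) and YRR1 at 33.2, 31.6, 38.7 and 46.6 CPM (0.39 ± 0.27, FDR 0.465). The remaining members that did not pass were PDR16 (0.88), RTA1 (0.76), IPT1 (0.66), PDR8 (0.12), PDR17 (-0.07) and YRM1 (-0.16).

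The Pdr1 and Pdr3 element was looked for as TCCGCGGA or TCCGTGGA on either strand in the 500 bases before each start codon (5472 genes with a full window, build R64 of the yeast genome from RefSeq). It was present before 8 of 101 protein-coding genes that rose (7.92%), 1 of 38 that fell (2.63%) and 92 of all 5472 (1.68%). The 8 genes were CIS1, GRE2, ICT1, IML2, PDR5, RTS3, YLL056C and YPL088W; SNQ2 and RSB1 had neither form in this window. PDR5 was the only one of the 8 with 3 copies. The stretches that hold the element are shown for 6 of these genes, because they are the genes of the pump, reductase and target lists and CIS1 that both rose and carry it; capitals mark the element, which YPL088W carries on the opposite strand.
PDR5 (chrXV:619344-619539, plus strand): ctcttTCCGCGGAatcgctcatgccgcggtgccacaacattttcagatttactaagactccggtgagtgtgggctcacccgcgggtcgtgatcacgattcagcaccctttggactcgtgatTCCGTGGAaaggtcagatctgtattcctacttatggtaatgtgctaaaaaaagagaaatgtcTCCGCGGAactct
CIS1 (chrXII:822894-822933, minus strand): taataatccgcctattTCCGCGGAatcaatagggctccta
ICT1 (chrXII:341091-341130, minus strand): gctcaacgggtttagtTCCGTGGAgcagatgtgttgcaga
YLL056C (chrXII:28620-28659, minus strand): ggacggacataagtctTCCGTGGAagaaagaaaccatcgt
GRE2 (chrXV:43527-43566, plus strand): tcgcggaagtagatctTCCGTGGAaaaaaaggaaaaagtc
YPL088W (chrXVI:381685-381724, plus strand): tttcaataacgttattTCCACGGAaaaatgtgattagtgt

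CIS1, the first gene of that set outside the pump lists, was all but absent in SD. It had 2 and 0 counts in the SD libraries and 68 and 31 in vanillin, a ratio of pooled counts of 53.7 with a 95% interval of 14.5 to 449 that covers counting error only. Its fitted change was 5.58 ± 0.77 (FDR 0.0056) and ranged from 4.67 without SD replicate 2 to 8.73 without SD replicate 1.

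Of 31 tested alcohol dehydrogenases and aldehyde reductases, 8 rose and none fell (median 0.36); 3 members with a value below 0 had an unadjusted p under 0.05, and DESeq2 called 3 falls. ADH7, an NADPH-dependent alcohol dehydrogenase of broad substrate range, stood at 13.8, 8.22, 109 and 80.2 CPM (3.10 ± 0.31, FDR 0.0015). YLL056C, a predicted oxidoreductase, stood at 21.2, 14.3, 122 and 129 CPM (2.82 ± 0.24, FDR 0.00053). OYE3, an NADPH oxidoreductase of the old yellow enzyme family, stood at 3.45, 5.19, 24.5 and 35.9 CPM (2.79 ± 0.36, FDR 0.0045). These 3 genes were low in both SD libraries and higher in both vanillin libraries. The paralogue OYE2 was the more abundant member, at 632, 775, 1747 and 1662 CPM, and rose by less (1.28 ± 0.18, FDR 0.006); the coding sequences of OYE2 and OYE3 are 73.5% identical. GRE2, an NADPH-dependent methylglyoxal reductase, stood at 277, 266, 649 and 768 CPM (1.38 ± 0.17, FDR 0.0037). YPL088W, a putative aryl alcohol dehydrogenase, rose from 35.0 and 50.6 CPM to 143 and 112 (1.57 ± 0.28, FDR 0.019). BDH1, the butanediol dehydrogenase, rose by only 0.70 ± 0.15 (FDR 0.045), from 443 and 416 CPM to 708 and 692. ADH1, the main alcohol dehydrogenase of fermentation, rose from 3104 and 4845 CPM to 10955 and 19654 (1.95 ± 0.39, FDR 0.032). The spread between replicates of ADH1 was wide in both media, and its value was 1.46 without vanillin replicate 2 and 2.31 without vanillin replicate 1. Values below 0 in this list went down to -1.15 and did not pass, among them the aldose reductases GRE3 (-1.01, FDR 0.067) and YJR096W (-0.99, FDR 0.059).

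The aldehyde dehydrogenases, which would oxidise an aldehyde to its acid, had 1 member that fell and none that rose among 7. ALD3, a cytosolic stress-regulated isoform, fell from 811 and 461 CPM to 135 and 162 (-2.10 ± 0.32, FDR 0.0089). ALD2, which is 91.8% identical to ALD3 in its coding sequence, stood at 103, 78.4, 96.2 and 87.2 CPM (0.02 ± 0.20). The others did not pass: ALD4 (0.36), ALD5 (0.36), ALD6 (0.08), HFD1 (-0.23) and MSC7 (0.22).

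YHB1, the flavohaemoglobin that removes nitric oxide, stood at 164, 148, 789 and 874 CPM (2.41 ± 0.17, FDR 0.0002), and was the only gene of 35 tested antioxidant, thioredoxin and glutathione genes that rose. GTT1, a glutathione transferase, was the only one that fell by edgeR (DESeq2 called 2 falls), from 360 and 357 CPM to 155 and 121 (-1.38 ± 0.19, FDR 0.0056). HBN1, which resembles bacterial nitroreductases, stood at 17.7, 13.9, 129 and 127 CPM (3.02 ± 0.24, FDR 0.00031). The site TTACTAA of Yap1 was present on either strand in the window before 20.8% of genes that rose, 21.1% of genes that fell and 12.1% of all genes. HBN1 had 3 copies, of which 2 lie in the stretch shown, and YHB1 and OYE3 had 2 each; these stretches are shown because the 3 genes rose and hold more than 1 copy, with the site in capitals.
HBN1 (chrIII:74209-74276, minus strand): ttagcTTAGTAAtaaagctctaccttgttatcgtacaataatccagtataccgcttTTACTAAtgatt
OYE3 (chrXVI:227508-227588, minus strand): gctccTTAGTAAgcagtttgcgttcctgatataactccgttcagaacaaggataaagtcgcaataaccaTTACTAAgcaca
YHB1 (chrVII:959492-959518, plus strand): ctcgaTTACTAAtcgTTACTAAaatag

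The pentose phosphate pathway is the main source of cytosolic NADPH, and in yeast several of its steps have a major isoform and a minor one that is raised in slow growth or stress. Of 17 tested genes of the pathway and of NADPH supply, 2 rose and 3 fell (median 0.20). The major 6-phosphogluconate dehydrogenase GND1 rose from 838 and 870.1 CPM to 1741 and 2367 (1.27 ± 0.23, FDR 0.023), while the minor GND2 fell from 210.2 and 197 CPM to 65.1 and 64.8 (-1.65 ± 0.25, FDR 0.0084). The 6-phosphogluconolactonase SOL3 rose from 271 and 282 CPM to 569 and 574 (1.05 ± 0.21, FDR 0.035), while its paralogue SOL4, at 258, 93.1, 41.5 and 50.8 CPM, had a value of -1.92 ± 0.44 that did not pass (FDR 0.056). The minor transketolase TKL2 fell from 204 and 126 CPM to 34.0 and 31.7 (-2.33 ± 0.29, FDR 0.0037), and the major TKL1 stood at 912, 1119, 1143 and 1506 CPM (0.38 ± 0.22, FDR 0.394). The minor transaldolase NQM1 fell from 319 and 278 CPM to 134 and 129 (-1.18 ± 0.18, FDR 0.0086), and the major TAL1 stood at 1160, 1096, 1177 and 1062 CPM (-0.01 ± 0.15). In all 4 pairs the minor isoform had the lower log2 fold change. The first enzyme, ZWF1, stood at 149, 148, 229 and 388 CPM and did not pass (1.05 ± 0.40, FDR 0.203); its vanillin replicates differed most. Coding identity within the pairs ran from 56.2% for SOL3 and SOL4 to 78.6% for GND1 and GND2.

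**Figure D2:**
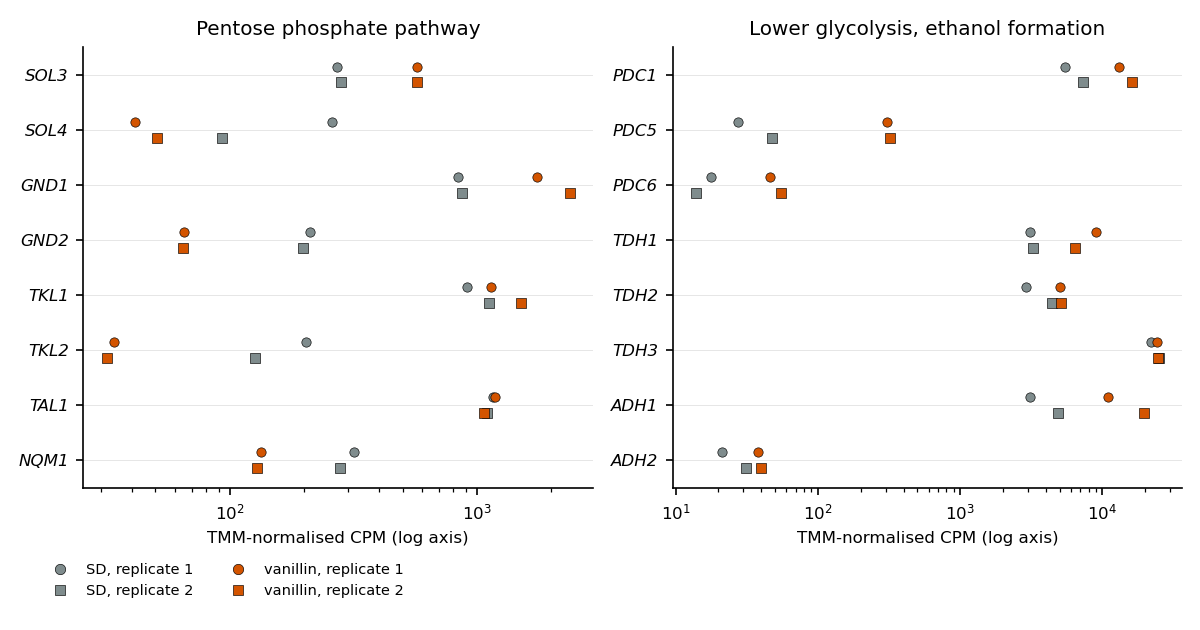
Each row is a gene and each point its TMM-normalised CPM in 1 library on a log axis, grey for SD and orange for vanillin, with circles for replicate 1 and squares for replicate 2. GND1 moved up and GND2 down, TKL2 and NQM1 moved down with TKL1 and TAL1 in place, and PDC5 and ADH1 moved up.

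Of 25 tested genes of glycolysis and pyruvate decarboxylation 4 rose and none fell (median 0.23). PDC5, a minor pyruvate decarboxylase that is known to be raised when PDC1 is lost or thiamine is short, stood at 27.6, 48.0, 307 and 319 CPM (3.05 ± 0.27, FDR 0.00067). PDC6, a further minor isoform, stood at 17.7, 13.9, 46.2 and 55.0 CPM (1.68 ± 0.25, FDR 0.0084). The major isoform PDC1 was higher in both vanillin libraries, at 5447, 7353, 13002 and 16177 CPM, but did not pass (1.19 ± 0.35, FDR 0.109). PDC1 and PDC5 are 87.2% identical in their coding sequence, so reads of the abundant gene could be assigned to the other, and the rise of PDC5 is uncertain to that extent. HXK2, the main hexokinase of glucose-grown cells, rose from 963 and 896 CPM to 2406 and 2292 (1.34 ± 0.17, FDR 0.0049). TDH1, a glyceraldehyde-3-phosphate dehydrogenase, rose from 3093 and 3269.5 CPM to 8940.4 and 6375 (1.27 ± 0.20, FDR 0.01), while TDH2 (0.46) and TDH3 (0.06), which are 90.2% and 88.9% identical to it, did not pass.

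None of 21 tested hexose transporters and glucose sensing genes rose and 2 fell (median 0.11, which lay below 0 on both log2 FPKM scales); 3 members with a value above 0 had an unadjusted p under 0.05, and DESeq2 called 1 rise and 3 falls. HXT7, a high-affinity glucose transporter, fell from 2226 and 961 CPM to 131 and 119 (-3.67 ± 0.80, FDR 0.044). Its neighbour HXT6, 99.8% identical in coding sequence, stood at 52.7, 51.9, 80.6 and 59.7 CPM (0.42 ± 0.41), so the split of reads between them cannot be relied on. HXT7 ranged from -4.15 without SD replicate 2 to -2.97 without SD replicate 1. The low-affinity HXT1 fell from 365 and 686 CPM to 83.5 and 70.8 (-2.77 ± 0.50, FDR 0.021). HXT3 (1.34 ± 0.53, FDR 0.216) and HXT4 (1.69 ± 0.88, FDR 0.34) had values above 0 that did not pass.

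Of 32 tested genes of inositol and phospholipid synthesis 5 rose and none fell, 29 had a value above 0 and the median was 0.42. INO1, the synthase of inositol-3-phosphate and the committed step of inositol synthesis, stood at 345, 340.2, 9069 and 8161 CPM (4.65 ± 0.21, FDR 1.9e-05), a 25.1-fold rise. It had the lowest FDR of all genes tested in BY4741, and its replicates lay close together in both media. ITR1, the inositol transporter of the plasma membrane, rose from 2093 and 2325 CPM to 5618 and 6392 (1.44 ± 0.18, FDR 0.0037). OPI3, a methyltransferase on the way to phosphatidylcholine, rose from 851 and 1142 CPM to 2654 and 3489 (1.62 ± 0.32, FDR 0.03). GIT1, which takes up glycerophosphoinositol, rose from 7 counts in each SD library to 26 and 30 in vanillin (2.10 ± 0.39, FDR 0.024), and FAS2, a subunit of fatty acid synthase, from 1246 and 1703 CPM to 2872 and 2933 (0.98 ± 0.21, FDR 0.043). The regulator genes INO4 (1.03, FDR 0.081) and OPI1 (0.84, FDR 0.057) did not pass.

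The core CATGTG of the Ino2 and Ino4 site was present before 15.8% of genes that rose, 13.2% of genes that fell and 12.9% of all genes, so its share among all genes that rose was near the background. It is shown for 3 list members that rose, with the core in capitals in either orientation: INO1 and OPI3 held 2 copies in the searched window and ITR1 3, of which 2 lie in the stretch shown.
INO1 (chrX:136101-136181, minus strand): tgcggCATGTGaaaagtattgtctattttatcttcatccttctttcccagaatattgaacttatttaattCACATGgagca
OPI3 (chrX:573073-573152, minus strand): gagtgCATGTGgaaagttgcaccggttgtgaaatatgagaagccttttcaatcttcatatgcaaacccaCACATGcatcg
ITR1 (chrIV:1445678-1445754, minus strand): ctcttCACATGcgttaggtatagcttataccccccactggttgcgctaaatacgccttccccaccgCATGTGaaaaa

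Of 28 tested genes of sterol synthesis 4 rose and none fell (median 0.15). ERG28, a scaffold protein of the sterol demethylation complex, rose from 45.3 and 38.5 CPM to 155 and 120.2 (1.71 ± 0.21, FDR 0.0037). UPC2, the transcription factor that activates sterol genes, rose from 47.1 and 47.6 CPM to 99.5 and 95.1 (1.04 ± 0.17, FDR 0.014). ARE2, an acyltransferase that stores sterols as esters, rose by 1.11 ± 0.22 (FDR 0.031) and ERG27, the keto-reductase of the demethylation complex, by 0.82 ± 0.17 (FDR 0.034).

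Of 38 tested genes that rise in many stresses, 10 fell and 4 rose in vanillin, with a list median of -0.47. HSP12, a small membrane-associated stress protein, fell from 2077 and 2537 CPM to 164 and 120.2 (-4.02 ± 0.30, FDR 0.00025), a 16.2-fold difference. CTT1, the cytosolic catalase, fell from 1149 and 454 CPM to 90.1 and 118 (-2.94 ± 0.47, FDR 0.011). MSC1 fell from 1707 and 1001 CPM to 219 and 229 (-2.59 ± 0.30, FDR 0.0037). RTN2, a reticulon, fell from 471 and 160.2 CPM to 30.7 and 41.5 (-3.13 ± 0.55, FDR 0.02), and FMP16 from 35.4 and 26.4 CPM to 4.72 and 1.40 (-3.32 ± 0.45, FDR 0.0082). The other members that fell were PHM7 (-1.66), GRE1 (-1.58), OM45 (-1.58), GAD1 (-1.32) and TFS1 (-1.21). SD replicate 1 held the higher level of most of these genes; without it the list median was -0.25 and without SD replicate 2 it was -0.75, CTT1 ranged from -3.46 to -2.15 and RTN2 from -3.70 to -2.18. FMP16 was -4.41 without vanillin replicate 1 and -2.70 without vanillin replicate 2. The 4 that rose were HSP30, a plasma membrane protein that restrains the proton pump (93.2, 68.4, 377 and 456 CPM; 2.36 ± 0.28, FDR 0.0037), its relative YRO2 (286, 300.4, 709.7 and 719 CPM; 1.28 ± 0.15, FDR 0.0037), TMA10 (13.8, 9.09, 39.6 and 54.5 CPM; 2.03 ± 0.31, FDR 0.0088) and HSP33 (2.69 ± 0.60, FDR 0.048). HSP33 is 99.4% identical to HSP32 in coding sequence, so its reads could be split with it, and its value was 2.00 without vanillin replicate 2.

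The stress response element AGGGG, on either strand, was present before 73.7% of genes that fell (28 of 38), 43.6% of genes that rose (44 of 101) and 34.1% of all genes (1866 of 5472). HSP12 carried 5 copies in its window and CTT1 3, of which 2 lie in the stretch shown. They are shown because HSP12 had the lowest FDR of the genes that fell and CTT1 carries copies side by side, with the element in capitals in either orientation.
HSP12 (chrVI:106816-107075, plus strand): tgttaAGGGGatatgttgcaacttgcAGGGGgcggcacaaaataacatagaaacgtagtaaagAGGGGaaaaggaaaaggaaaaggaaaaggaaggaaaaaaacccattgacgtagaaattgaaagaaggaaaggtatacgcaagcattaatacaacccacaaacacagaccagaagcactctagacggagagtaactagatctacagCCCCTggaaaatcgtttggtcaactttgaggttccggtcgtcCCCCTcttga
CTT1 (chrVII:654251-654280, plus strand): tttcaAGGGGatcaccggtaAGGGGccaag

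Lists that often move with these genes held few calls. Of 21 tested genes of trehalose and glycogen metabolism none passed edgeR's test (lowest FDR 0.061; 4 had an unadjusted p under 0.05, a share near that of all genes, and DESeq2 called 1 rise and 1 fall), 4 had a value above 0 and the median was -0.40, which was -0.77 without SD replicate 2 and -0.02 without SD replicate 1. TSL1, a subunit of trehalose synthase, stood at 1358, 529.8, 397 and 667 CPM (-0.83 ± 0.43), so the vanillin libraries lay around the lower SD library. Of 28 chaperones, 1 rose: BTN2, which sorts misfolded proteins, from 77.3 and 59.7 CPM to 187 and 203 (1.51 ± 0.27, FDR 0.022).

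**Figure D3:**
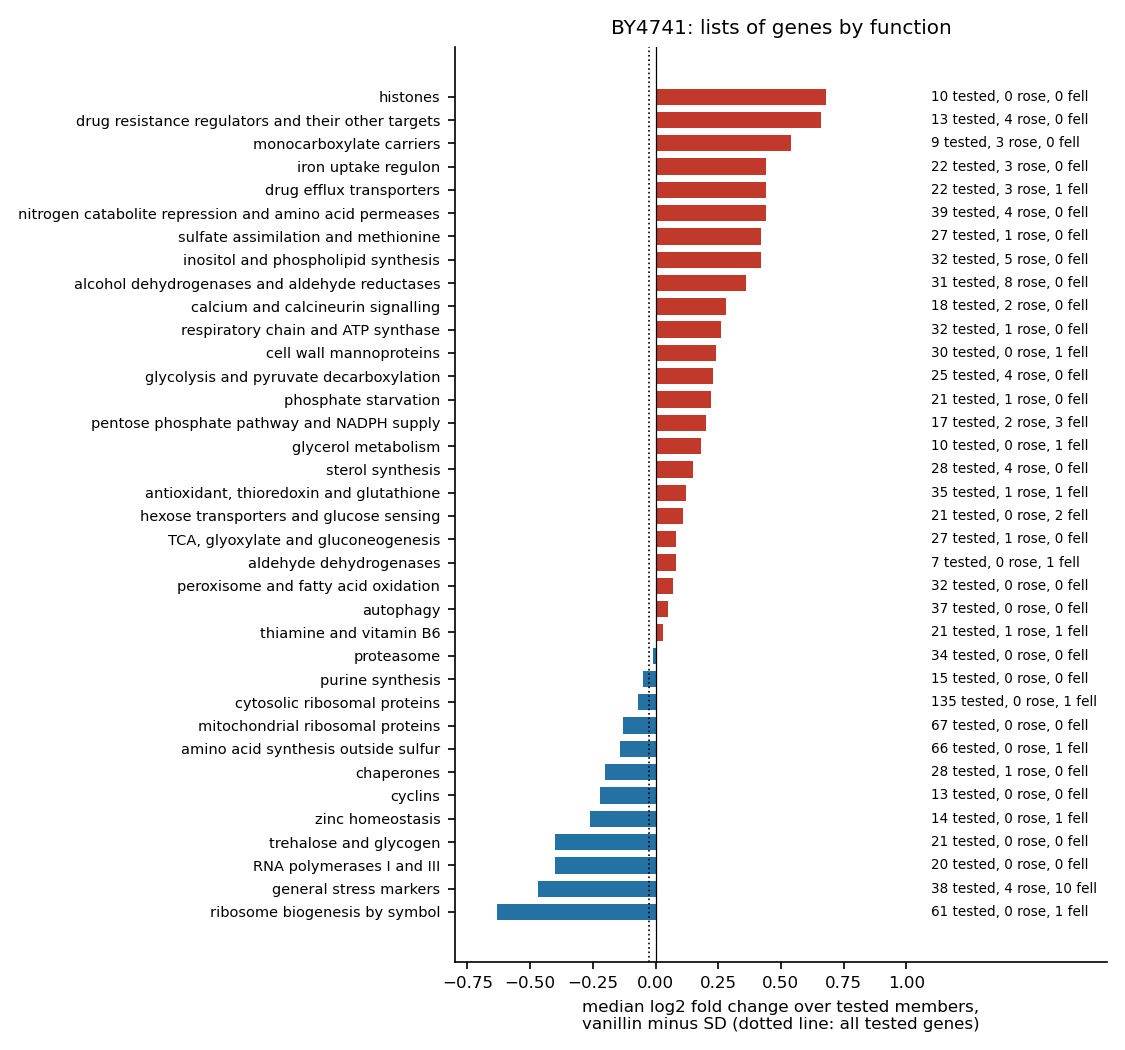
Bars give the median log2 fold change, vanillin minus SD, over the tested members of 36 lists of genes by function, and the text beside each bar gives how many were tested, rose and fell at an FDR of at most 0.05. The dotted line is the median of all tested genes, -0.02. Histones have the highest median (0.68), though no histone gene passed, followed by drug resistance targets (0.66), and reductases (0.36) also lie above the line. Ribosome biogenesis has the lowest median (-0.63), followed by general stress genes (-0.47).

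MCH2, a protein of the monocarboxylate carrier family whose substrate is not settled, had the largest rise of all called genes: 4.32, 5.63, 211 and 312 CPM (5.70 ± 0.38, FDR 0.0002), a 52.1-fold change. Of 9 tested monocarboxylate carriers 3 rose and none fell. JEN1, the lactate and pyruvate carrier, rose from 16.8 and 19.5 CPM to 53.3 and 58.7 (1.62 ± 0.26, FDR 0.012), and MCH5, the riboflavin transporter, from 30.2 and 53.2 CPM to 93.8 and 108 (1.27 ± 0.27, FDR 0.043). MCH1 (0.11), MCH4 (0.14), ESBP6 (0.54), ATO2 (1.21), ATO3 (0.03) and ADY2 (-1.02) did not pass. SNG1, a membrane protein that confers resistance to a nitrosoguanidine, stood at 30.7, 52.4, 431 and 502 CPM (3.49 ± 0.34, FDR 0.0015). YLR046C, a predicted membrane protein of the family that includes RSB1 and RTA1, stood at 47.5, 41.6, 344 and 382 CPM (3.03 ± 0.24, FDR 0.00031). SNG1 and YLR046C are named by a rule that asks the libraries of the 2 media not to overlap, so that separation is no result.

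**Figure D4:**
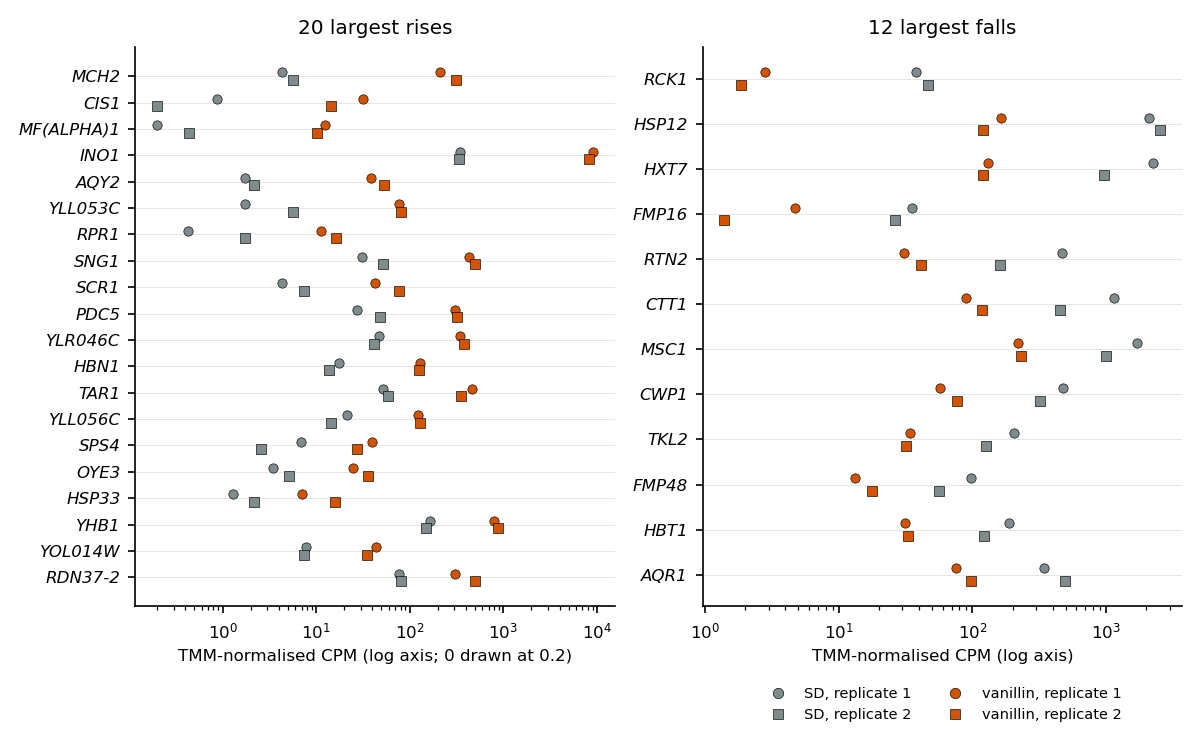
Each row is 1 of the 20 largest rises (left) or 12 largest falls (right) among genes chosen by the rule given with the methods, and each point is the TMM-normalised CPM of 1 library on a log axis, grey for SD and orange for vanillin. The rule asks that both vanillin points lie on the same side of both SD points, so this is no result; CIS1 and MF(ALPHA)1 reach 0 in SD, drawn at 0.2.

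Among the largest rises, YLL056C, YLL053C and AQY2 lie within a few genes of each other on the left arm of chromosome XII, and their neighbours were looked at after these values were seen. AQY2 and YLL053C are the 2 fragments of an aquaporin gene that is interrupted in this strain background. They overlap by 50 bases on the same strand, so reads of the overlap cannot be assigned. YLL053C stood at 1.73, 5.63, 77.3 and 81.6 CPM (4.41 ± 0.55, FDR 0.0039) and AQY2 at 1.73, 2.16, 38.2 and 52.7 CPM (4.51 ± 0.75, FDR 0.014). The value of YLL053C was 3.78 without SD replicate 1 and 5.48 without SD replicate 2. Of 14 genes in order from MHT1 to YBT1, 5 rose and none fell: besides these 3, YCT1, a cysteine transporter (28.1, 21.6, 60.4 and 69.9 CPM; 1.39 ± 0.21, FDR 0.0099), and FRE6, a vacuolar metal reductase (73.0, 82.2, 159 and 150.1 CPM; 0.99 ± 0.19, FDR 0.03). YLL054C, which lies between YCT1 and YLL053C and codes for a putative transcription factor, did not pass (0.29 ± 0.22, FDR 0.499). Nor did COF1 (-0.06), LDB18 (0.44) and YBT1 (-0.32) beyond FRE6. Before YLL056C in this order, MHT1, MMP1, GTT2, HSU1 and JLP1 had values from 0.44 to 1.13 that did not pass. The lowest FDR among these was 0.076 for JLP1.

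**Figure D5:**
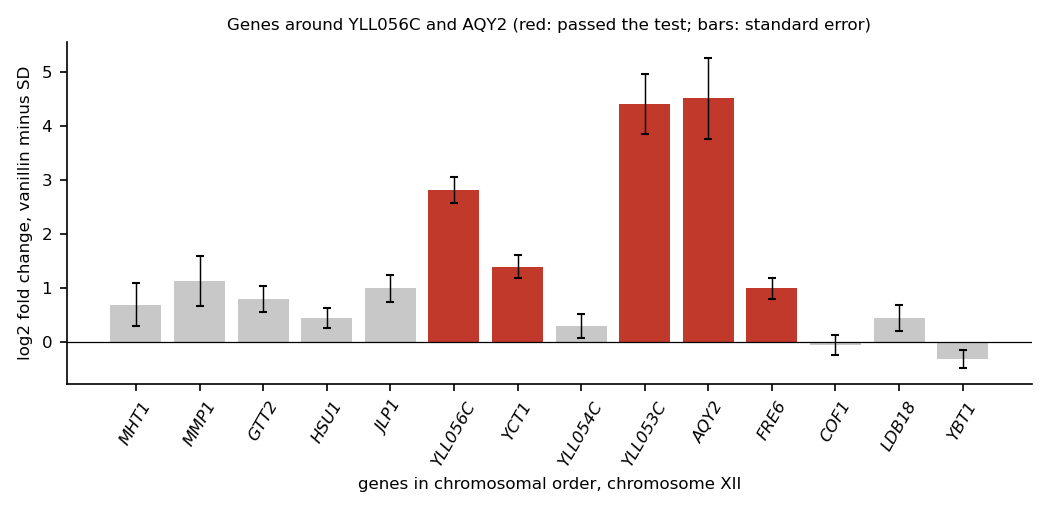
Bars give the log2 fold change, vanillin minus SD, with its standard error for 14 genes in their order on chromosome XII, red where the gene rose. YLL053C and AQY2 stand above 4, while YLL054C next to them stands at 0.29.

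Of 22 tested genes of the iron uptake regulon 3 rose and none fell (median 0.44): ARN1, a siderophore transporter (33.7, 51.9, 209 and 198 CPM; 2.25 ± 0.27, FDR 0.0037), TIS11, which promotes decay of mRNAs of iron-using proteins (28.1, 32.0, 153 and 101 CPM; 2.08 ± 0.26, FDR 0.0037), and FRE6. Among 14 genes of zinc homeostasis 1 fell, ZPS1, from 876 and 724 CPM to 388 and 192 (-1.47 ± 0.33, FDR 0.049; -2.06 without vanillin replicate 1 and -1.05 without vanillin replicate 2). The other 13 did not pass, from IZH1 at -0.96 to COT1 at 0.45, with the uptake transporter ZRT1 at 2671, 4121, 3096 and 2262 CPM (-0.34). PHO5, the repressible acid phosphatase, rose from 46.6 and 42.4 CPM to 142 and 137 (1.65 ± 0.30, FDR 0.023) and was the only gene of 21 in the phosphate list that passed. Of 27 genes of sulfate assimilation and methionine synthesis, SUL1, a sulfate permease, rose by 1.15 ± 0.24 (FDR 0.036).

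Nitrogen source genes gave 4 rises and no fall among 39 tested (median 0.44). GDH1, the NADPH-dependent glutamate dehydrogenase, rose from 1089.6 and 977 CPM to 1961 and 2382 (1.07 ± 0.16, FDR 0.0099). The ammonium permease genes MEP2, at 43.6, 71.9, 139 and 190.2 CPM (1.51 ± 0.31, FDR 0.035), and MEP3, at 88.5, 85.3, 160.3 and 199 CPM (1.05 ± 0.22, FDR 0.036), rose, as did PUT1, proline oxidase (0.95 ± 0.20, FDR 0.036). Thiamine and vitamin B6 gave 1 rise and 1 fall of 21: THI4, the enzyme that makes the thiazole part of thiamine, rose from 22.4 and 26.4 CPM to 107 and 110.5 (2.15 ± 0.21, FDR 0.0015), and PHO3, a phosphatase that releases thiamine from its phosphates, fell from 278 and 402 CPM to 166 and 167 (-1.03 ± 0.23, FDR 0.05).

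RCK1, a protein kinase, had the largest fall of all called genes, from 37.6 and 46.3 CPM to 2.83 and 1.86 (-4.13 ± 0.56, FDR 0.0056), with 87 and 107 counts against 6 and 4. CWP1, a cell wall mannoprotein, fell from 478 and 319.9 CPM to 57.1 and 76.9 (-2.57 ± 0.30, FDR 0.0037) and was edgeR's only call of 30 in its list (7 members with a value above 0 had an unadjusted p under 0.05, and DESeq2 called 3 rises and 2 falls). HBT1 (-2.27 ± 0.33) and FMP48 (-2.30 ± 0.38) fell as well. Of 18 calcium and calcineurin genes, GSC2, the stress-induced glucan synthase (225, 277, 787 and 778 CPM; 1.64 ± 0.22, FDR 0.0055), and CMK2, a calmodulin-dependent kinase (1.24 ± 0.21, FDR 0.017), rose. CIT2, the peroxisomal citrate synthase, rose by 1.23 ± 0.24 (FDR 0.03) and was edgeR's only call of 27 in its list (DESeq2 called 1 rise and 1 fall), as was QCR6 (1.24 ± 0.24, FDR 0.027) among 32 respiratory genes. DAK1, a dihydroxyacetone kinase, fell by 0.76 on the log2 scale (FDR 0.043); the other 9 glycerol genes lay between -0.68 for GPD1 and 0.96 for GUT1. The 10 histone genes did not pass, although every one had a value above 0, from HTZ1 at 0.17 to HTA1 at 1.11 (430, 370.1, 862 and 859.9 CPM; FDR 0.093). Of these 10, 6 had an unadjusted p under 0.05, against 18.3% of all genes, and DESeq2 called 3 rises. None of 13 cyclin and cell cycle genes passed, the lowest being CLN2 at -0.88 ± 0.22 (FDR 0.067), which was also the 1 gene with an unadjusted p under 0.05 and the 1 gene that DESeq2 called.

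Genes of other cell states appeared among the rises. MF(ALPHA)1, the pheromone precursor of the opposite mating type, had 0 and 1 counts in SD and 26 and 22 in vanillin, a ratio of pooled counts of 52.1 with a 95% interval of 8.91 to 2098 (5.39 ± 0.73, FDR 0.0056). Its fitted value was 4.51 without SD replicate 1 and 7.70 without SD replicate 2. The α-type genes MF(ALPHA)2 (5, 4, 2 and 6 counts), STE3 (28, 18, 35 and 31 counts) and SAG1 (60, 83, 68 and 80 counts) had no shift of this size. Nor had the a-type gene STE2 (1445, 1631, 1116 and 986 counts). STE3 was somewhat higher in both vanillin libraries and STE2 somewhat lower. SPS4, a sporulation gene, rose from 6.91 and 2.60 CPM to 39.6 and 27.5 (2.81 ± 0.51, FDR 0.023). Its value was 2.27 without SD replicate 2 and 3.63 without SD replicate 1. The meiosis genes IME1 (10, 8, 6 and 19 counts) and SPO11 (25, 11, 20 and 21 counts) overlapped between the media. NDT80 (61, 57, 86 and 80 counts) was higher in both vanillin libraries.

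The libraries were made from RNA selected by its poly(A) tail, so reads of structural RNAs are what the selection left. Of 33 tested non-coding RNA genes 11 rose and none fell, which is 8 distinct sets of counts because 3 loci of the ribosomal RNA repeat are listed as 2 copies with the same counts; 30 had a value above 0 and the median was 1.56. RNA of the large ribosomal subunit (RDN25) rose from 299 and 379.6 CPM to 1244 and 1273 (1.89 ± 0.23, FDR 0.0037), and the precursor RDN37 from 77.3 and 81.4 CPM to 307 and 502 (2.35 ± 0.33, FDR 0.0064). RDN37 spans RDN25 by 3396 bases on the same strand as well as RDN18, so its reads cannot be assigned to the precursor alone. The small subunit RNA RDN18 stood at 97.1, 165, 103 and 161 CPM (0.01). RPR1, the RNA of RNase P, stood at 0.432, 1.73, 11.3 and 16.3 CPM (3.61 ± 0.66, FDR 0.022; 4.84 without SD replicate 2 and 2.93 without SD replicate 1), and SCR1, the RNA of the signal recognition particle, at 4.32, 7.36, 42.4 and 77.4 CPM (3.35 ± 0.68, FDR 0.035). Ribosomal RNA took 0.103% and 0.131% of all counts in SD and 0.329% and 0.373% in vanillin, so its share moved with the medium; its part in the rise of these RNAs was not tested. TAR1, at 51.8, 58.4, 463 and 357 CPM (2.89 ± 0.48, FDR 0.013), lies antisense within RDN25 by 375 bases, and since the sources used here do not state strand, its reads cannot be told apart from those of the ribosomal RNA.

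Of 135 tested cytosolic ribosomal protein genes 1 fell, RPL9A (-1.01 ± 0.19, FDR 0.028), whose paralogue RPL9B is 93.8% identical, and the median was -0.07. Of 61 genes of ribosome biogenesis 1 fell, UTP22 (-1.12 ± 0.24, FDR 0.041); 11 had an unadjusted p under 0.05, all with a value below 0, and DESeq2 called 3 falls. Their median was the lowest of all lists, -0.63, with only 4 values above 0, and it rested on 1 library: it was -1.07 without SD replicate 1 and -0.07 without SD replicate 2. RNA polymerases I and III had no call among 20, a median of -0.40, and a median of 0.02 without SD replicate 2. No call was made among 34 proteasome genes, 67 mitochondrial ribosomal proteins, 15 purine genes, 37 autophagy genes or 32 peroxisome genes, of which the lowest FDR was 0.067. At an unadjusted p under 0.05 these 5 lists held 1, 3, 2, 7 and 7 genes and the polymerases 2, in no list far above the 18.3% of all genes, and DESeq2 called 1 rise among the mitochondrial ribosomal proteins, 1 among the autophagy genes and 0 in the others. None of the 20 seripauperin genes had enough counts to be tested.

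Of the 150 genes called in BY4741, 137 had the same sign in the deletion strain (54.5% of all tested genes did). A total of 87 had the same sign and passed there at an FDR of 0.05 (8.41% of all). The 2 contrasts share no library, but the spread of each gene was fitted over all 8 libraries, so the calls in the 2 strains are not independent. The difference between the 2 responses was tested over all genes, and 5 passed (0.0908%), of which SNG1, TDH1, ZPS1 and BDH1 are described above. SNG1 rose by 3.49 in BY4741 and stood at -0.09 in the deletion strain, a difference of -3.58 ± 0.47 (FDR 0.037). For INO1 (4.65 and 2.85, FDR of the difference 0.058), SNQ2 (3.13 and 1.51, FDR 0.079), MCH2 (5.70 and 6.73, FDR 0.326) and HSP12 (-4.02 and -5.72, FDR 0.101) the difference did not pass.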

How the data were processed

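The series holds 8 RNA-seq libraries (BY4741 and its YRR1 deletion strain, in SD or SD with 5 mM vanillin, 2 biological replicates each), made from poly(A)-selected RNA and sequenced on an Illumina HiSeq 4000. The authors deposited, for each library, an expected count and an FPKM value per gene on genome build R64; the aligner and counter are not given in the sources used here. Their deposited comparison tables hold fold changes and a probability score, were not used, and write 6 mM in their headers where the labels give 5 mM. A gene not listed for a library was set to 0.

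Expected counts were rounded to whole numbers, filtered with filterByExpr, scaled by TMM and tested with edgeR 4.0.16 (R 4.3.3) in 1 quasi-likelihood model of 4 groups without a replicate block. All 5782 gene identifiers matched the RefSeq R64 annotation. On simulated counts of this comparison (5506 genes) the test recovered 44.8%, 94% and 100% of genes changed by 1, 2 and 3 on the log2 scale, and 5.36% of its calls were false. These counts were drawn independently for each gene from the fitted spread, so shifts that many genes share in a library are outside these rates. FPKM entered only limma 3.58.1 alternatives with pseudocounts of 0.1 and 1. DESeq2 1.42.0, other scalings and filters, the BY4741 libraries alone, a replicate block and leaving out each library were the other alternatives.

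Genes are named by rule: the 20 largest rises and 12 largest falls past a fold of 2 and an FDR of 0.05 whose libraries do not overlap and that the paper does not name; members of the 37 lists at an FDR of 0.05; members of lists with at most 14 tested genes; and paralogues that could share reads. One gene these rules name is not reported here. Members, lists and tests were chosen with earlier results of these data known. Intervals cover counting error only.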

Additional observations from a re-analysis of the deposited data

Results flagged for a closer look

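For 5 genes the response to vanillin differed between the strains by a test of the difference itself (edgeR, FDR 0.037 for each). The difference, deletion strain minus BY4741 on the log2 scale, was -3.80 for ZPS1, -3.58 for SNG1, -2.80 for GPG1, -2.12 for TDH1 and -2.0 for BDH1. ZPS1 fell in both strains (-1.47 in BY4741 and -5.27 in the deletion strain, where it stood at 807 and 826 CPM in SD and 26.7 and 15.6 in vanillin). SNG1 stood at 49.5 and 28.6 CPM in SD and 42.3 and 30.9 in vanillin in the deletion strain. GPG1, a subunit associated with G protein signalling, did not pass in BY4741 (88.9, 93.1, 211 and 123 CPM; 0.87 ± 0.25, FDR 0.102) and fell by 1.92 in the deletion strain (119, 109, 30.7 and 29.3 CPM). TDH1 rose by 1.27 in BY4741 and fell by 0.85 in the deletion strain, and BDH1 rose by 0.70 and fell by 1.30. None of the 5 remained at an FDR of 0.05 when any of 3 BY4741 libraries was left out.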

How the results depend on the processing

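Of 94 named genes called in BY4741, 22 kept their direction and their side of the threshold under every alternative that gave them a value, which for 21 was all 13 and for CIS1 all but the filter of 50 counts, and none reversed. The count at a fold of 2 and an FDR of 0.05 was 150, and 37 to 79 with 1 BY4741 library left out; at the FDR of 0.05 alone it was 173 and again 37 to 79, and 290 with DESeq2; at the FDR of 0.001 it was 10 and 0 to 1, 111 with DESeq2 and 5 with only the 4 BY4741 libraries. The strain difference gave 5 genes, 216 with DESeq2 and 0 to 2 with 1 library left out. Differences between replicates 1 and 2 correlated across genes at -0.098 between SD and vanillin of BY4741, so the replicate numbers gave no pairing there. Between the SD groups of the 2 strains the correlation was -0.584, so part of the SD replicate spread was shared, with the numbers crossed. The remaining pairs of groups lay from 0.007 to 0.182. The cause of the shared spread was not tested. With a replicate block in the model the 4 counts were 97, 99, 1 and 0. Scaling by library totals or the FPKM scales moved 18 to 20 of 36 list medians by more than the replicate spread, and those of the aldehyde dehydrogenase, thiamine, TCA, autophagy and peroxisome lists, all within 0.1 of 0, fell below 0. The glycerol list median, 0.18, was -0.08 with a filter of 50 counts in 2 libraries. The cause of these moves was not tested. With 2 replicates, a change of 1 on the log2 scale was often below what the test could call.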

Other observations

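The genes in these paragraphs are outside the lists above and were picked after their values were seen, so they stand as single genes and not for a group. ATF2, an alcohol acetyltransferase, rose from 21.6 and 31.6 CPM to 96.2 and 83.4 (1.75 ± 0.25, edgeR FDR 0.0064), and EEB1 and EHT1, acyltransferases of ethyl esters, by 1.45 ± 0.24 (FDR 0.014) and 0.90 ± 0.17 (FDR 0.026). The phospholipase B genes PLB1, at 214, 266, 598 and 714 CPM (1.45 ± 0.30, FDR 0.036), and PLB2 (1.19 ± 0.22, FDR 0.026) rose as well. PYC1, a pyruvate carboxylase, rose by 1.19 ± 0.22 (FDR 0.024). PUG1, a transporter of protoporphyrin and haem, rose from 14.2 and 13.9 CPM to 62.2 and 62.5 (2.15 ± 0.27, FDR 0.004).

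Genes of transcription factors among the calls were FZF1, at 4.75, 4.76, 15.1 and 14.4 CPM (1.62 ± 0.32, FDR 0.032), SMP1 (2.03 ± 0.30, FDR 0.0082), SFG1 (1.36 ± 0.21, FDR 0.01), NRG1 (1.18 ± 0.23, FDR 0.03), NRG2 (1.29 ± 0.25, FDR 0.031) and PHD1 (1.23 ± 0.24, FDR 0.03), each of which rose. SSU1, the sulfite pump that FZF1 is known to activate, stood at 148, 106, 145 and 135 CPM (0.14 ± 0.31). It is a single target and does not stand for the others, which were not looked at as a set. DSE1, a gene expressed in daughter cells, fell from 407 and 403 CPM to 133 and 144 (-1.55 ± 0.20, FDR 0.0049) and CTS1, chitinase, from 1506 and 1658 CPM to 700.3 and 806 (-1.07 ± 0.17, FDR 0.013). Uncharacterised genes with large rises were YML131W (78.1, 58.0, 265 and 326 CPM; 2.12 ± 0.22, FDR 0.0016), YOL014W (2.38 ± 0.52, FDR 0.045), YPL277C (2.19 ± 0.36, FDR 0.014) and YOR389W (1.73 ± 0.21, FDR 0.0037), of which the last pair is 75.6% identical in coding sequence.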
